A study of Homo sapiens with 8 samples.

Results

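The KRAB zinc-finger gene clusters of human chromosome 19 were examined for histone H3 trimethylated at lysine 4 (H3K4me3) in MM1S cells, an established multiple myeloma line. The members were the called regions whose centre lay in any of 5 windows on GRCh37 chromosome 19, which cover 11.2 Mb together: 19.8 to 24.2 Mb (cluster 1), 36.7 to 38.3 Mb (cluster 2), 44.3 to 44.9 Mb (cluster 3), 52.3 to 53.9 Mb (cluster 4) and 56.1 to 59.1 Mb (cluster 5). Of 50523 merged regions in the series, 303 were members, and 1818 lay on the rest of chromosome 19. Membership used position only and no measured value, though the windows were chosen with earlier results of these data known. The tested cells were MM1S given 50 uM of KDM5-C70, an inhibitor of the KDM5 family of H3K4 demethylases, for 7 days (3 libraries). The control cells were MM1S given the vehicle DMSO, with no time stated in the labels (5 libraries). The labels do not say whether the libraries of a group came from separate cultures, so the spread between them may be technical.

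Most KRAB zinc-finger proteins are repressors of transcription. Their finger arrays bind DNA, many of them at transposable elements, and the KRAB domain recruits TRIM28 (KAP1), which brings in the H3K9 methyltransferase SETDB1. The genes arose by tandem duplication and stand side by side on chromosome 19, and their 3′ exons are known for carrying H3K9me3 in many cell types, while H3K4me3 marks their promoters when these are active. In the RefSeq gene table of GRCh38.p14, 250 of the 1451 protein-coding genes of chromosome 19 have a symbol of the form ZNF and a number. Of these 250 genes, 226 stand next to another such gene, and the longest unbroken run holds 27. That table is of another build than the lists of called regions, so no gene was assigned to a region and regions are named by position. Whether a given member lies at the start of a zinc-finger gene was therefore not tested.

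Each library had its own list of called regions, with 17977, 32133 and 37948 regions in KDM5-C70 1 to 3 and 20998, 15323, 32376, 30363 and 28195 in DMSO 1 to 5. The files give no read depth, and a region missing from a list may still carry the mark. By the overlap of their called bases the libraries formed 2 sets that crossed the treatment. KDM5-C70 1, DMSO 1 and DMSO 2 made up the smaller set, and KDM5-C70 2, KDM5-C70 3 and DMSO 3, 4 and 5 the larger set. Over regions called in all 8 libraries, those of the larger set were called wider, with genome-wide medians of 1355 to 1581 bp, against 840 to 1043 bp in the smaller set. The sets were recognised from the data alone, and values within each set are given beside several of the comparisons by treatment, not all.

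Recurrence of the members as a whole lay above the rest of chromosome 19, with overlapping intervals, and that of cluster 1 lay below it. Of the 303 members, 140 (46.2%) were called in all 8 libraries, with an exact 95% binomial interval of 40.5 to 52.0% that covers counting error over regions only. On the rest of chromosome 19 it was 737 of 1818 (40.5%, interval 38.3 to 42.8%), and over the whole series 27.2%. In lists of equal length the share of members was 39.6%, with no value for the rest of the chromosome beside it. At the other end, 57 members (18.8%) were called in 1 library alone, against 23.9% of the regions of the rest of chromosome 19 and 31.7% of all regions. The remaining members were called in 2 to 4 libraries (51 members) or in 5 to 7 (55 members). Among the members called in 5 to 7 libraries were 27 (8.91% of all members) found in all libraries of the larger set and in none of the smaller. The share was 8.25% on the rest of chromosome 19 and 10.6% over the whole series. No member was called in every KDM5-C70 library and no DMSO library, nor the other way round. Over the whole series this held for 1 region (0.00198%) and 4 regions (0.00792%), so the members lay at the background.

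**Figure D1:**
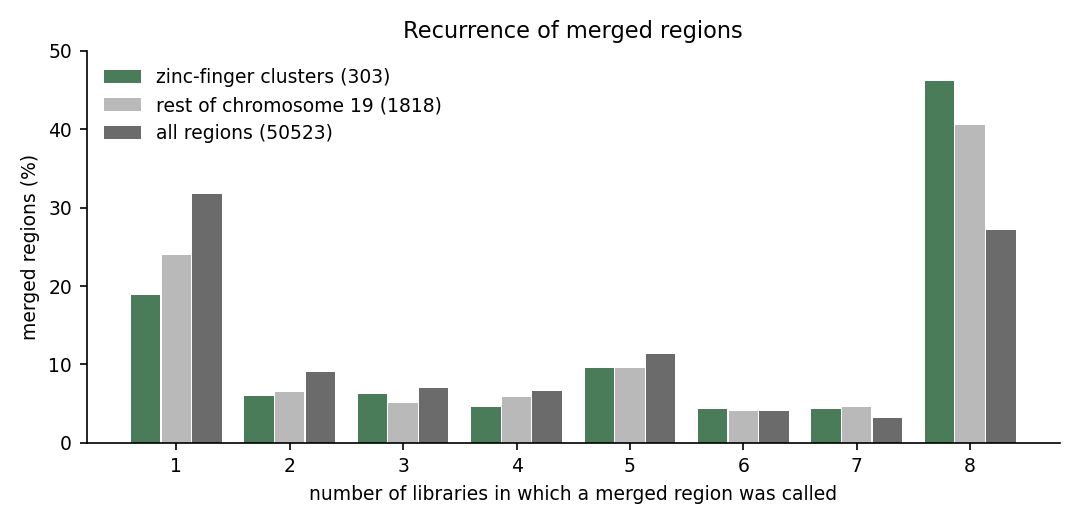
Bars give the percentage of merged regions (y axis) called in 1 to 8 libraries (x axis), for the 303 zinc-finger cluster regions, the 1818 regions on the rest of chromosome 19 and all 50523 regions. The clusters have the tallest bar at 8 libraries (46.2%) and the shortest at 1 library (18.8%).

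Within single libraries the clusters kept 161, 222 and 229 members in KDM5-C70 1 to 3, and 188, 156, 220, 237 and 227 in DMSO 1 to 5. A library called on average 4.70 percentage points more of the cluster regions than of the regions of the rest of chromosome 19 (exact sign-flip permutation p = 0.0313, 2-sided, higher in 6 of 8 libraries). After Benjamini-Hochberg adjustment over 6 such comparisons the exact permutation p was 0.0586, so this difference did not pass. It was 10.4 points without cluster 1 (exact sign-flip permutation p = 0.00781, unadjusted), and below 0 in stricter lists (-0.18 points) and in lists of equal length (-2.57 points). Here and below, the comparison of the clusters with the rest of the chromosome uses the same regions in every library, so its p says how steady a difference was over libraries, not over regions. Members made up 13.8 to 16.4% of the chromosome 19 regions of a library and 11.9 to 14.7% of its called bases.

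Cluster 1 had the lowest recurrence. Of its regions, 24 (23.8%) were called in all 8 libraries, against 18 of 43 (41.9%) in cluster 2, 14 of 21 (66.7%) in cluster 3, 25 of 41 (61.0%) in cluster 4 and 59 of 97 (60.8%) in cluster 5. The share in cluster 1, which held 101 of the 303 members, lay below the 40.5% of the rest of chromosome 19. It also lay below the 27.2% of the whole series. Without cluster 1, 57.4% of the members were called in every library. Of the 27 members found in the larger set alone, 15 lay in cluster 1. Regions called in all 8 libraries were also sparse there, at 5.45 per Mb and a median spacing of 108.8 kb, and the longest gap between neighbours was 1483 kb. In cluster 5 there were 19.7 per Mb at a median spacing of 24.6 kb. Clusters 2, 3 and 4 had 11.3, 23.3 and 15.6 per Mb.

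Cluster regions called in all 8 libraries were narrower than those on the rest of chromosome 19 in every library. Their median called width was 693, 1173 and 1275 bp in KDM5-C70 1 to 3, and 800, 620, 1145, 1077 and 1109 bp in DMSO 1 to 5. On the rest of chromosome 19 the medians were 981, 1469 and 1468 bp in KDM5-C70 1 to 3, and 1028, 836, 1401, 1281 and 1324 bp in DMSO 1 to 5. The difference ranged from -297 to -193 bp, with a mean of -237 ± 38.7 bp (SD, n = 8; exact sign-flip permutation p = 0.00781, the smallest possible with 8 libraries, adjusted p = 0.0234). All 8 libraries had the same sign, in both treatments and in both sets.

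**Figure D2:**
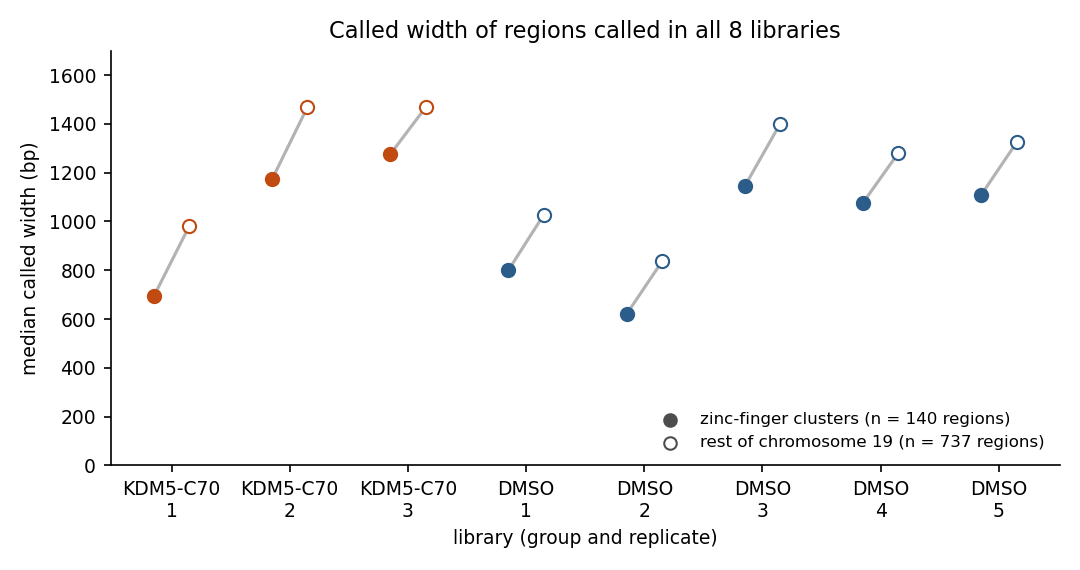
Each pair of points is 1 library (x axis), with the median called width in bp (y axis) of the 140 zinc-finger cluster regions (filled) and of the 737 regions on the rest of chromosome 19 (open), for regions called in all 8 libraries. KDM5-C70 libraries are orange and DMSO libraries blue. The filled point lies below the open point in all 8 libraries, by 193 to 297 bp.

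The shift lay in the middle and upper part of the width distribution. With each region's width averaged over the 8 libraries, the median was 971 bp in the clusters, 1225 bp on the rest of chromosome 19 and 1287 bp over all 13729 regions called in every library. The 10th percentile was nearly the same, at 671 bp in the clusters and 672 bp on the rest of the chromosome. The 25th percentile was 776 bp in the clusters and 908 bp on the rest of the chromosome. The 90th percentile was 1503 bp in the clusters and 2035 bp on the rest of the chromosome. Regions averaging at least 2000 bp numbered 3 of 140 (2.14%) in the clusters and 79 of 737 (10.7%) on the rest of the chromosome, while those under 500 bp numbered 1 of 140 and 23 of 737. Within 200 kb of a window border, the 37 regions just inside had a median of 1057 bp and the 22 just outside 1257 bp. Less recurrent members were not narrower throughout. Members called in 1 library had a median width of 238 bp, against 244 bp on the rest of the chromosome. Members called in 2 to 4 libraries had 411 bp, against 368 bp, and those in 5 to 7 libraries had 671 bp, against 587 bp. Over all regions of a library, recurrent or not, the median width in the clusters differed from the rest of the chromosome by a mean of -76.3 bp (exact sign-flip permutation p = 0.0625, adjusted p = 0.0625), and in KDM5-C70 3 the cluster median was the higher, at 1005 against 965.5 bp. Without cluster 1 this mean was 8.88 bp.

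Each cluster alone was narrower than the rest of chromosome 19 in all 8 libraries, which makes 40 of 40 comparisons. The mean difference was -443 bp in cluster 1, -192 bp in cluster 2, -316 bp in cluster 3, -242 bp in cluster 4 and -111 bp in cluster 5. Cluster 1 held the narrowest regions by median, with 478, 1013 and 1007 bp in KDM5-C70 1 to 3 and 573, 422, 986, 858 and 913 bp in DMSO 1 to 5. Cluster 5 had the widest regions by median in 6 of 8 libraries, with 721, 1344 and 1435 bp in KDM5-C70 1 to 3 and 968, 725, 1240, 1231 and 1238 bp in DMSO 1 to 5. Clusters 2 and 4 were wider in KDM5-C70 1, at 772.5 and 786 bp, and cluster 2 in DMSO 2, at 730.5 bp. All 3 members averaging over 2000 bp lay in cluster 5.

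**Figure D3:**
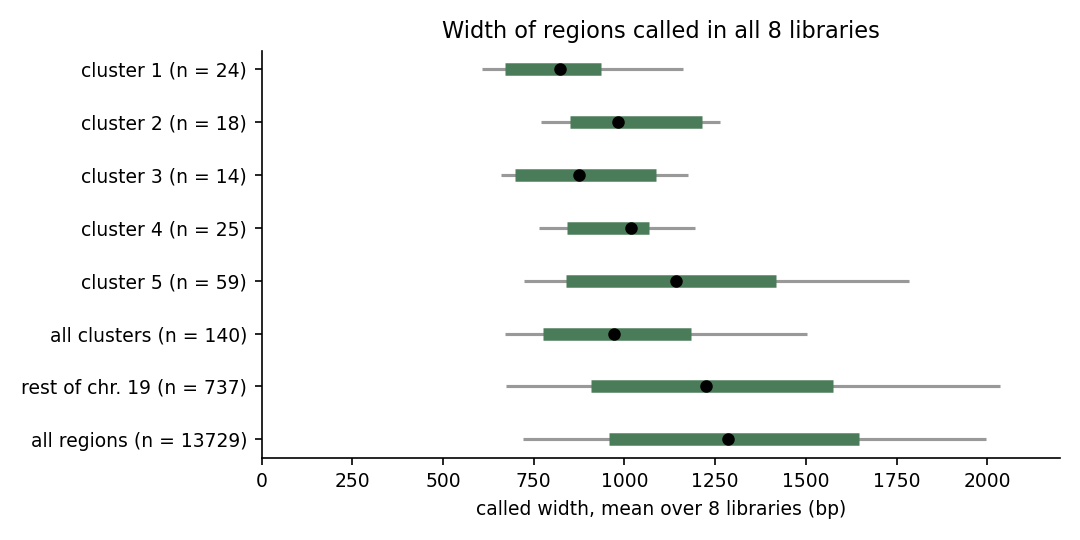
Called width in bp, averaged over the 8 libraries (x axis), for regions called in every library, by cluster, for all clusters, for the rest of chromosome 19 and for all such regions of the series. Points are medians, thick bars run from the 25th to the 75th percentile and thin lines from the 10th to the 90th. The 5 cluster medians lie between 823 and 1141 bp, below the 1225 bp of the rest of the chromosome.

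The 5 widest members all lay in cluster 5, near its 2 ends or in its middle. The region from 56151604 to 56155845 averaged 2537 bp, and its called width was 1440, 2958 and 2420 bp in KDM5-C70 1 to 3 against 1543, 1420, 3839, 2930 and 3748 bp in DMSO 1 to 5. Its widths split by set rather than by treatment, with no library of the smaller set above 1543 bp and none of the larger below 2420 bp. The region from 56165271 to 56168550, a little further along, averaged 2433 bp. Next came the region from 59083801 to 59087659, which averaged 2219 bp and reached 3853 bp in KDM5-C70 3. The regions from 57790880 to 57793812 and from 59054793 to 59057534 averaged 1924 and 1916 bp. Among the other clusters the widest members averaged 1437 bp (cluster 1, from 19886369 to 19888265), 1563 bp (cluster 2, from 36704878 to 36706771), 1426 bp (cluster 3, from 44598045 to 44599995) and 1409 bp (cluster 4, from 52692046 to 52694818).

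The 3 narrowest members called in all 8 libraries lay in clusters 1 and 4. The region from 53140973 to 53141634 averaged 366 bp, with 163, 469 and 146 bp in KDM5-C70 1 to 3 and 318, 193, 595, 464 and 579 bp in DMSO 1 to 5. The value of 146 bp is the shortest length found in any list, so it can only bound the width from above. The region from 20277982 to 20278744 averaged 507 bp and the region from 19843258 to 19844082 averaged 545 bp.

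Cluster regions held several inner segments less often than regions elsewhere on the chromosome. Each deposited region carries inner blocks, the stretches of stronger signal that the peak caller nested in a broader region, and those longer than 1 bp are called inner segments here. Several inner segments were present in 30.0, 46.4 and 55.7% of the 140 recurrent members in KDM5-C70 1 to 3, and in 34.3, 26.4, 42.9, 42.1 and 37.1% in DMSO 1 to 5. On the rest of chromosome 19 the shares were 45.2, 61.3 and 65.9% in KDM5-C70 1 to 3, and 49.0, 36.9, 57.1, 51.7 and 52.2% in DMSO 1 to 5. The mean difference was -13.1 ± 2.48 percentage points (SD, n = 8), lower in 8 of 8 libraries (exact sign-flip permutation p = 0.00781, adjusted p = 0.0234). Cluster by cluster the share lay below the rest of the chromosome in 33 of 40 comparisons, with 8 of 8 libraries in clusters 1 and 3, 7 in cluster 4, 6 in cluster 2 and 4 in cluster 5. In every library alike, 29 members (20.7%) held exactly 1 segment, against 13.03% of the recurrent regions on the rest of the chromosome, and 16 (11.4%) held several, against 20.4%. Width and the number of segments move together within a list, and the part of the narrower widths in this difference was not tested.

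The share of the called sequence that lay in inner segments, the inner share, differed less between the parts of the chromosome. Over the recurrent regions it was 3.07 ± 3.07 percentage points (SD, n = 8) higher in the clusters, in 7 of 8 libraries (exact sign-flip permutation p = 0.0391, adjusted p = 0.0586). Over every called region the difference was 2.01 points, in 6 of 8 libraries (exact sign-flip permutation p = 0.0625, adjusted p = 0.0625). Neither passed after adjustment. The exception over the recurrent regions was KDM5-C70 1, with 59.5% in the clusters and 61.2% on the rest of the chromosome. In that library 11 of the 140 recurrent members (7.86%) had no inner segment at all, against 24 of 737 (3.26%) on the rest of the chromosome. In DMSO 2, the library with the shortest list, the order was the other way round, with 1 of 140 and 26 of 737 (3.53%).

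Between treatments, the inner share of the clusters lay lower with KDM5-C70 within each set of libraries, but the groups overlapped across the sets. KDM5-C70 1 to 3 had 56.3, 67.8 and 64.1%, and DMSO 1 to 5 had 72.4, 67.5, 81.8, 76.3 and 76.6%. Only DMSO 2, at 67.5%, lay below a KDM5-C70 library, and that was KDM5-C70 2 of the other set. KDM5-C70 averaged 62.7 ± 5.87% (SD, n = 3) and DMSO 74.9 ± 5.33% (SD, n = 5), which differ by -12.2 points (p = 0.0714 by exact permutation over 56 splits, 2-sided, adjusted p = 0.179 over 5 measures). In the smaller set KDM5-C70 1 had 56.3%, against a mean of 69.9% in DMSO 1 and 2. In the larger set KDM5-C70 2 and 3 averaged 66.0% and DMSO 3 to 5 averaged 78.2%. Over the recurrent members alone KDM5-C70 averaged 67.2 ± 7.35% (SD, n = 3) and DMSO 80.8 ± 7.18% (SD, n = 5; p = 0.0714 by exact permutation, adjusted p = 0.179).

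The treatment difference in the clusters was not shown to differ from that on the rest of chromosome 19. On the rest of the chromosome the inner share averaged 62.0 ± 2.85% in the KDM5-C70 libraries (SD, n = 3) and 72.1 ± 4.54% in the DMSO libraries (SD, n = 5), which differ by -10.1 points with no overlap (p = 0.0357 by exact permutation, the lowest value 56 splits can give, adjusted p = 0.143 over 4 measures). The test of the difference itself, the treatment effect in the clusters minus that on the rest of the chromosome, gave -2.05 points (exact permutation p = 0.321, adjusted p = 0.321 over 3 measures). It was -0.38 points without KDM5-C70 1, -4.46 points within the smaller set and -0.99 points within the larger. Over the recurrent regions it was -3.80 points (exact permutation p = 0.107, adjusted p = 0.321), with -4.67 points within the smaller set and -3.62 points within the larger.

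**Figure D4:**
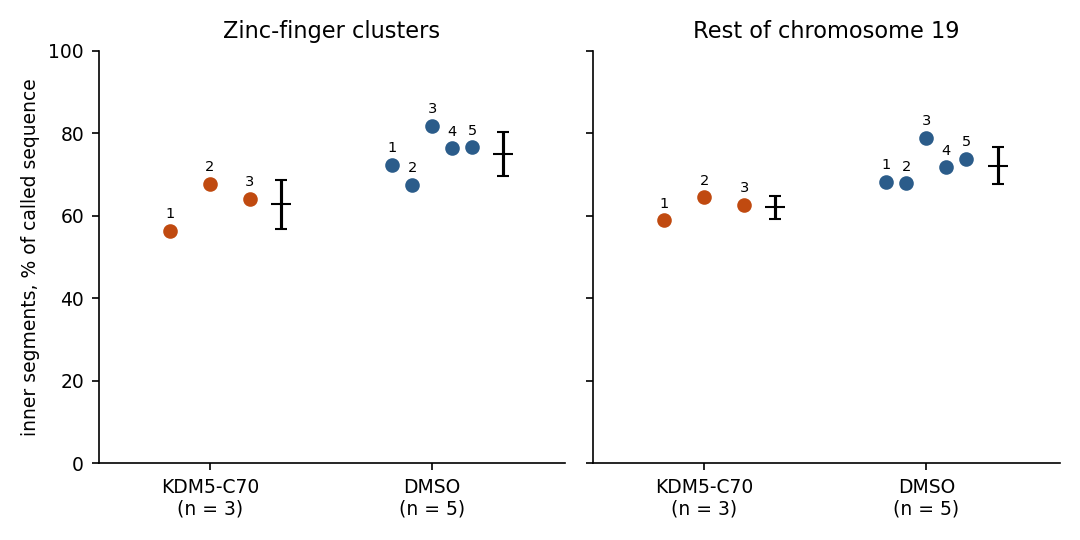
Inner segments as a percentage of called sequence (y axis) in the zinc-finger clusters and on the rest of chromosome 19, by treatment. Numbered points are libraries by replicate, and the bar beside each group is the mean ± SD. In the clusters DMSO 2 (67.5%) lies just below KDM5-C70 2 (67.8%), and on the rest of the chromosome the groups do not overlap.

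Of the single clusters, cluster 1 was the one whose libraries separated by treatment in the inner share over recurrent regions. It was picked out after its values were seen and is given with no test. Over its 24 recurrent regions the inner share was 68.8, 75.7 and 68.5% in KDM5-C70 1 to 3, against 92.2, 87.4, 86.3, 86.7 and 81.0% in DMSO 1 to 5. Every KDM5-C70 library lay below every DMSO library, across both sets. In clusters 2, 3, 4 and 5 the means with KDM5-C70 were 64.7, 71.0, 67.3 and 66.2%, against 82.6, 79.6, 81.1 and 79.0% with DMSO, and the groups overlapped in each. Over every called region of a cluster, recurrent or not, clusters 1 and 5 both separated. In cluster 5 that inner share was 60.6, 68.2 and 63.3% in KDM5-C70 1 to 3, against 74.1, 70.5, 82.1, 74.7 and 78.6% in DMSO 1 to 5.

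Among the 140 recurrent members, the inner share did not overlap between the groups in 17 (12.1%), all of them lower with KDM5-C70. Over all 13729 regions called in every library the percentage lower without overlap was 12.2, so the members lay at the background. On the rest of chromosome 19 that percentage was 9.23 (68 of 737). The percentage higher without overlap was 0.204 over all regions, and 0 of 140 members. The 17 members were spread over 4 of the 5 clusters. They were 3 of 24 recurrent regions in cluster 1, 2 of 18 in cluster 2 and 0 of 14 in cluster 3. In clusters 4 and 5 they were 3 of 25 and 9 of 59. Their differences ranged from -64.9 to -12.8 percentage points.

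The largest of these differences lay in cluster 4. The region from 53425645 to 53427136 had an inner share of 0, 24.6 and 57.8% in KDM5-C70 1 to 3, against 80.4, 100, 100, 100 and 81.4% in DMSO 1 to 5. Its outer width ran the other way at 1011, 1039 and 1011 bp in KDM5-C70 1 to 3, against 591, 146, 687, 673 and 1054 bp in DMSO 1 to 5. The region was thus called as long as or longer than in 4 of the 5 DMSO libraries with less of it in inner segments, and DMSO 5 had its longest call.

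The region from 20149805 to 20151224, in cluster 1, held no inner segment in any KDM5-C70 library, while its inner share was 89.5, 60.3, 38.0, 100 and 20.1% in DMSO 1 to 5. It was the only member of the 140 without a segment in all 3 KDM5-C70 libraries, and 2 of all 13729 regions were so. The region from 56879108 to 56880687, in cluster 5, had 34.5, 55.4 and 24.6% in KDM5-C70 1 to 3, against 95.1, 92.7, 88.3, 100 and 78.0% in DMSO 1 to 5.

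Called width showed no treatment difference beyond the spread in the clusters. The median over the recurrent members averaged 1047 ± 311 bp in KDM5-C70 libraries (SD, n = 3) and 950 ± 229 bp in DMSO libraries (SD, n = 5; p = 0.536 by exact permutation, adjusted p = 0.670). In the smaller set it was 693 bp in KDM5-C70 1 against a mean of 710 bp in DMSO 1 and 2. In the larger set KDM5-C70 2 and 3 averaged 1224 bp and DMSO 3 to 5 averaged 1110 bp. The width difference between the clusters and the rest of the chromosome averaged -259 ± 57.5 bp in KDM5-C70 libraries (SD, n = 3) and -224 ± 19.9 bp in DMSO libraries (SD, n = 5; p = 0.250 by exact permutation, adjusted p = 0.321). A KDM5-C70 library called 204 ± 37.4 members (SD, n = 3) and a DMSO library 206 ± 33.2 (SD, n = 5; p = 0.964 by exact permutation, adjusted p = 0.964). The share of recurrent members with several segments averaged 44.0 ± 13.02% in KDM5-C70 libraries (SD, n = 3) and 36.6 ± 6.69% in DMSO libraries (SD, n = 5; p = 0.357 by exact permutation, adjusted p = 0.595).

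Region by region, limma fitted on the log2 called width of all 13729 recurrent regions found 0 wider members and 0 narrower ones past an adjusted p of 0.05, where the percentage called over all regions was 0.0 in each direction. At an unadjusted p under 0.05 there were 0 wider members (0.954% of all regions) and 2 narrower (0.809% of all regions). The same 2 members were those whose widths did not overlap between the groups, 1.43% of the 140, against 1.56% of all regions in either direction, 0.605% narrower and 0.954% wider. The median log2 change was 0.12 over the members, 0.14 over the rest of chromosome 19 and 0.14 over all regions, and 100 of the 140 members lay above 0. With each library centred on its median width these medians were -0.04, -0.02 and -0.02 and 61 members lay above 0, so the direction of the members as a whole depended on the scaling.

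The clearest member was the region from 56651375 to 56653305, in cluster 5. Its called width was 546, 1111 and 940 bp in KDM5-C70 1 to 3, against 1388, 1342, 1587, 1594 and 1638 bp in DMSO 1 to 5. All 3 KDM5-C70 libraries lay below all 5 DMSO libraries, and they did so within each set. The log2 change was -0.86 (SE 0.25, limma unadjusted p = 0.00674, adjusted p = 0.994), and -0.56 without KDM5-C70 1. In a fit with a term for the 2 sets of libraries and each library centred, 27 of all 13729 regions passed. This region was the only member among them, with a log2 change of -1.01 (limma adjusted p = 0.0442). The sets were found from the same called bases whose widths were tested, so this adjusted p is a description. The call needed both the term and the centring. With the term alone 0 members passed (smallest limma adjusted p = 0.120), and 0 with centring alone (smallest limma adjusted p = 0.100). Its inner share did not separate the groups, at 81.3, 54.3 and 51.8% in KDM5-C70 1 to 3 and 33.2 to 84.5% in the DMSO libraries.

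The second was the region from 19843258 to 19844082, near the lower border of cluster 1. Its called width was 416, 399 and 430 bp in KDM5-C70 1 to 3, against 622, 619, 697, 564 and 611 bp in DMSO 1 to 5. These widths hardly differed between the sets within a group, unlike those of most members. The log2 change was -0.58 (SE 0.24, limma unadjusted p = 0.0371, adjusted p = 0.994), and -0.70 with the sets as a term and centring (limma adjusted p = 0.147).

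**Figure D5:**
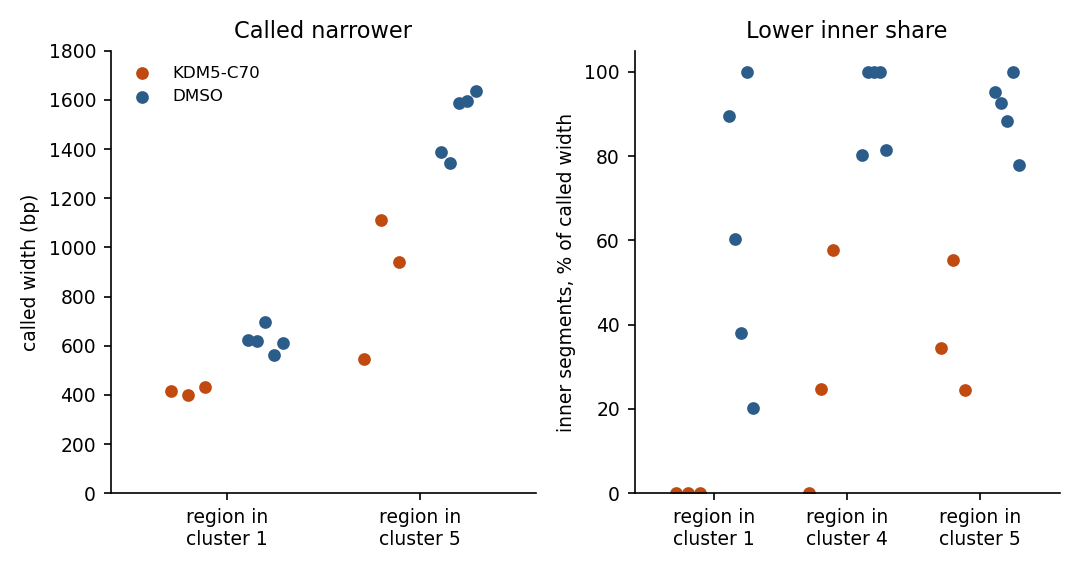
Left, called width in bp (y axis) of the 2 members whose widths do not overlap between the groups. Right, inner share in percent of called width (y axis) of the 3 members with the largest difference without overlap. Each point is 1 library, KDM5-C70 orange and DMSO blue, and on the left all KDM5-C70 points lie at 399 to 430 bp and 546 to 1111 bp, below the DMSO points at 564 to 697 bp and 1342 to 1638 bp.

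The other members named above did not separate by treatment in width. Their log2 changes ran from -0.83 (SE 0.50) at the region from 53140973 to 53141634 to 0.94 (SE 0.55) at the region from 53425645 to 53427136, with limma unadjusted p values of 0.131 and 0.117. Leaving out single libraries, they ranged from -1.36 (without KDM5-C70 2) to -0.52 (without KDM5-C70 3) at the one, and from 0.48 (without DMSO 2, whose call there was 146 bp) to 1.19 (without DMSO 5) at the other. For the widest member, from 56151604 to 56155845, the log2 change was -0.18 (SE 0.39, limma unadjusted p = 0.645).

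Within the 5 libraries of the larger set, 190 members were called in all of them. Of these, 53 (27.9%) were wider in both KDM5-C70 libraries than in all 3 DMSO libraries, below the percentage of 35.0 over all 22537 regions called in the set, and 19 (10.0%) were narrower, where the percentage was 7.61. Inner share was lower in both KDM5-C70 libraries in 77 members (40.5%), where the percentage over all regions was 35.0, and higher in 9 (4.74%), where it was 3.08. On the rest of chromosome 19 the shares were 32.2% wider, 9.61% narrower, 33.4% lower in inner share and 2.62% higher.

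The spread of a member's width over the 8 libraries followed the sets. In 106 of the 140 recurrent members (75.7%) every library of the larger set had a wider call than every library of the smaller set, against 62.1% on the rest of chromosome 19 and 71.0% over all regions. The sets were found from the same called bases, so these shares are a description. The median coefficient of variation of the width was 27.3% in the clusters, 23.4% on the rest of the chromosome and 25.7% over all regions. The overlap of called bases between libraries of different sets was 0.390 to 0.580 in the clusters by the Jaccard index (shared called bases divided by the bases of their union), and 0.409 to 0.626 on the rest of the chromosome.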

How the data were processed

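Each library (3 KDM5-C70, 5 DMSO) has a deposited peak list without a header. The submitters' processing notes name MACS2 2.1.0, Bowtie 1.1.2, Trim Galore 0.40, HOMER 4.8 and the build GRCh37. Their settings, and whether a control library was used, were not given in the sources used here. Besides positions and inner blocks, the lists hold the authors' display score, fold enrichment (a ratio), and -log10 p-value and q-value per region. Of these values, only the deposited -log10 q-value entered the results given here, for stricter lists. No counts were used, so depth and counting error per library are unknown.

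Regions on chromosomes 1 to 22 and X were merged wherever they overlapped by at least 1 bp; 23 to 41 regions per list lay elsewhere and were left out. Positions count from 1. Called width is the called bases of a library in a merged region. Single values were compared by exact permutation over libraries (56 splits, smaller tail doubled, or all sign patterns) with Benjamini-Hochberg adjustment. Widths were tested with limma 3.58.1 (R 4.3.3, variance trend, no centring, 2-sided) over all regions called in 8 libraries. Other steps used Python 3.11.15 with scipy 1.17.1, pandas 2.3.3, matplotlib 3.10.9 and numpy 2.4.6. Steps were tested on simulated data.

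Named regions were the 6 of smallest p in each direction without overlap, the 5 widest, 3 narrowest, the widest of each cluster, any called in all of 1 group only, and the 3 of largest inner-share difference without overlap in each direction. The windows, lists and measures were chosen with earlier results of these data known.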

Additional observations from a re-analysis of the deposited data

Results flagged for a closer look

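The search for a single DMSO library far from the other 4, which marks about 5% of groups by chance, was run on 29 groups of values and marked 2. In the region of chromosome 19 from 52692046 to 52694818, the widest member of cluster 4, DMSO 3 had a called width of 2085 bp, against 993 to 1269 bp in the other DMSO libraries. The share of recurrent members with no inner segment was 0.714% in DMSO 2, which is 1 region of 140, against 0 in each of the other DMSO libraries. With the other 4 values tied at 0, any value above 0 would have been marked. The rate of 5% does not apply to this mark.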

How the results depend on the processing

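The narrower width and the lower share with several segments in the clusters passed under every alternative that gave a value. Leaving out any library gave -244 to -216 bp, and -13.5 to -11.8 points. All 8 libraries had the same sign, so leaving out 1 could hardly change the outcome and is a weak check. Counting every region that overlaps a window as a member gave the same values as the main setting, so it checks nothing further. Lists cut at a -log10 q-value of 5 left 0% of members called in every library, so the width and segments of recurrent members had no value there and limma had no member to test; the width of all called regions differed by -74.3 bp (exact permutation p = 0.328). There the cluster excess of called regions turned to -0.18 points, and KDM5-C70 minus DMSO was -85.4 members and -17.7 points of inner share (exact permutation p = 0.0357 for both), in lists of 3028 to 7036 regions for KDM5-C70 and 6394 to 19917 for DMSO. Lists of equal length, keeping the widest regions, gave -2.57 points for the excess, 39.6% of members in every library, 1.17 points for the inner share of recurrent regions and -204 bp for the width of all called regions. Joining regions within 1000 bp gave -89.5 bp for that width. Without cluster 1 it was 8.88 bp, the excess of called regions 10.4 points, the recurrent inner share 2.36 points and the members in every library 57.4%. The cause of these shifts was not tested.

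Leaving out each library in turn, the excess of called regions ranged from 3.39 to 5.25 points, the inner share difference from 1.65 to 2.67 points over all and from 2.47 to 3.74 points over recurrent regions, and the width of all called regions from -93.1 to -55.2 bp. By treatment, the number of members ranged from -14.1 to 19.9, the median width from -17.4 to 242.5 bp and the inner share from -14.7 to -8.95 points. The treatment effect in the clusters minus that on the rest ranged from -3.32 to -0.38 points of inner share, from -5.03 to -2.54 points over recurrent regions and from -68.3 to -17.2 bp of width. With 3 against 4 or 2 against 5 libraries the exact test cannot reach 0.05.

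No paired reading was taken: deviations of same-numbered libraries correlated at 0.37, -0.31 and 0.32, and KDM5-C70 1 correlated best with DMSO 2 (0.415). With the replicate block, which leaves out DMSO 4 and 5, limma called 0 members in either direction (10 of all regions). With the sets as a term and centring it called 1 narrower, and with the term alone, an alternative chosen after seeing the data, 0. The sets came from the same called bases, so these 2 fits are a description. Uncalled log2 changes turned sign at the region from 36704878 to 36706771 (-0.12 centred, -0.10 with sets) and, under the block, at those from 20149805 to 20151224 (0.044), 56151604 to 56155845 (0.10) and 59054793 to 59057534 (0.13). Over single left-out libraries these ranged from -0.091 to 0.17, -0.61 to 0.46, -0.41 to 0.11 and -0.31 to 0.22. The regions from 20277982 to 20278744 and from 59083801 to 59087659 ranged from -0.69 to 0.15 and from -0.20 to 0.62.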
